A study of Mus musculus with 14 samples.

Results

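The genes described here are 10 that read out fasting signals and glucose production: Ppara, Ppargc1a, Fgf21, Pdk4, Angptl4, G6pc, Pck1, Fbp1, Txnip and Cpt1b. They were chosen by name, and their rows were taken from the deposited gene count tables. All 10 were among the 19660 genes of the liver table and 9 were among the 20203 genes of the kidney table, where Fgf21 was not analysed. RNA was sequenced from the liver and kidney of male mice aged 12 weeks that ate a normal diet (ND) or a high salt diet (HS). Every group, the controls included, carried a human angiotensinogen transgene of the Hap -6A haplotype, so the comparison is between diets within 1 transgenic genotype. There were 14 libraries: 4 per diet in liver (ND1 to ND4, HS5 to HS8) and 3 per diet in kidney (ND1 to ND3, HS1 to HS3). The labels do not give the number of transgenic lines, the time without food or the hour of collection, and they do not say whether replicates are separate animals, so p-values measure the spread between these libraries.

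In fasting, liver and kidney cortex make glucose from lactate, glycerol and amino acids, and the liver turns to burning fatty acids. Glucagon acts through cyclic AMP and the factor CREB, the loss of insulin frees FOXO factors, and fatty acids activate the nuclear receptor encoded by Ppara. Ppargc1a encodes PGC-1alpha, the coactivator that these signals share. After a meal, insulin and carbohydrate turn these genes down and turn the genes of glycolysis and fatty acid synthesis up.

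The promoters of 4 members are shown because their letters hold textbook elements of these signals, which the per-library values below refer to. Each is the stretch before the first annotated transcript start, which for Pck1 and G6pc lies upstream of the RefSeq start and shortens the stretch, from RefSeq's promoter table on GRCm38.p6, written 5′ to 3′ on the gene's own strand. Capitals mark exact matches, on either strand, to TTACGTCA (a variant of the cyclic AMP response element), GTAAACA (the FOXO core), CACGTG (an E-box) or CAAAACA (the core of insulin response sequences, here on the opposite strand).
Pck1, chr2:173152823-173153047, plus strand: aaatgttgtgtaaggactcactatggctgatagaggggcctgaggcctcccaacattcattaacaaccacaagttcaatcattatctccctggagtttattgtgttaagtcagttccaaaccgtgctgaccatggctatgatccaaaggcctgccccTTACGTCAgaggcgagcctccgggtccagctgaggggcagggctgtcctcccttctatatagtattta
Txnip, chr3:96557707-96557956, plus strand: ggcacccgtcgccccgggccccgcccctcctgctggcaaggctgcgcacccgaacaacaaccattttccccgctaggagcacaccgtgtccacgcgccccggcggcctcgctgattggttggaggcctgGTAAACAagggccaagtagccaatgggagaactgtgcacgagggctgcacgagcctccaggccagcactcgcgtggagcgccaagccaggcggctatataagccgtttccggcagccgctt
Fgf21, chr7:45615491-45615740, minus strand: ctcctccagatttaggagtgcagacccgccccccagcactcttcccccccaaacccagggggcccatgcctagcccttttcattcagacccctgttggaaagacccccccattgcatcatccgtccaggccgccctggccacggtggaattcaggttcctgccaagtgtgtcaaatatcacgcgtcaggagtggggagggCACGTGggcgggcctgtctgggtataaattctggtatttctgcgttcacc
G6pc, chr11:101367466-101367560, plus strand: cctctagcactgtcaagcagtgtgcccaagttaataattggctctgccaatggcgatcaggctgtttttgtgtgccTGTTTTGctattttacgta

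These motifs were counted in the 250 bases before the start of every promoter in the table, 32851 in all, of which 8 belong to members. For the matches in members, only bases before the first annotated transcript start were searched. That left 0 bases for Ppara, 95 for G6pc, 219 for Pdk4, 225 for Pck1 and 249 for Ppargc1a. The shares of all promoters are therefore not like for like with the members. TTACGTCA was in 0.447% of all promoters and, among the members, in that of Pck1. GTAAACA was in 3.17% of all promoters and, among the members, in that of Txnip. CACGTG was in 6.02% of all promoters and in that of Fgf21, 50 to 45 bases before the start. CAAAACA was in 5.56% of all promoters and in that of G6pc. The full cyclic AMP element TGACGTCA was in 1.55% of all promoters and the PPAR element (a spaced repeat of AGGTCA) in 0.033%. Neither was found in the searched stretches of the members, and Ppara, with 0 bases left, was not searched. A match is a description of letters and says nothing of binding in these samples.

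Liver libraries held from 37267778 to 51487382 counts and kidney libraries from 16046094 to 22004927. Mitochondrial transcripts took 2.30% and 2.06% of liver ND1 and ND2, against 11.3% to 29.6% of the other 6 liver libraries. The pair HS5 and HS6 stood out for likeness, with a chi-square per gene of 1.65 against 10.4 to 63.9 in other liver pairs of 1 diet, and in kidney ND2 and ND3 gave 4.28 against 12.0 to 57.4. Counts are given as counts per 1000000 counts (CPM) with library sizes scaled by the TMM method of edgeR. With edgeR's quasi-likelihood test and a Benjamini-Hochberg adjusted p under 0.05, 152 of 15130 liver genes were called (1.00%) and 0 of 15847 kidney genes (0%). At an unadjusted p under 0.05 there were 3205 liver genes (21.2%) and 318 kidney genes (2.01%), and DESeq2 called 1122 and 11. The tissue labels were checked with albumin (Alb), at 31700 to 85150 CPM in liver against 2.72 to 35.5 CPM in kidney, and with the tubule marker Umod, at 1006 to 1839 CPM in kidney against at most 1.41 CPM in liver.

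No member passed the test in liver (0 of 10) or in kidney (0 of 9), at a background of 1.00% and 0%. In liver, 6 members had a positive and 4 a negative log2 fold change (high salt minus normal diet), with a median of 0.43 beside -0.02 over all genes tested. The diets did not overlap for 1 of the 10, Fgf21, where 12.3% of all liver genes had no overlap. It was also the 1 member with an unadjusted p under 0.05, a background of 21.2%. In kidney, 5 were positive and 4 negative, with a median of 0.06 beside -0.02 over all genes, and the diets overlapped for all 9, where 6.83% of genes had no overlap. The coefficient of variation within a diet ran from 11.7% to 113% for liver members and from 4.98% to 42.9% for kidney members. In bulk RNA, fewer cells of a type and less RNA per cell cannot be told apart.

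**Figure D1:**
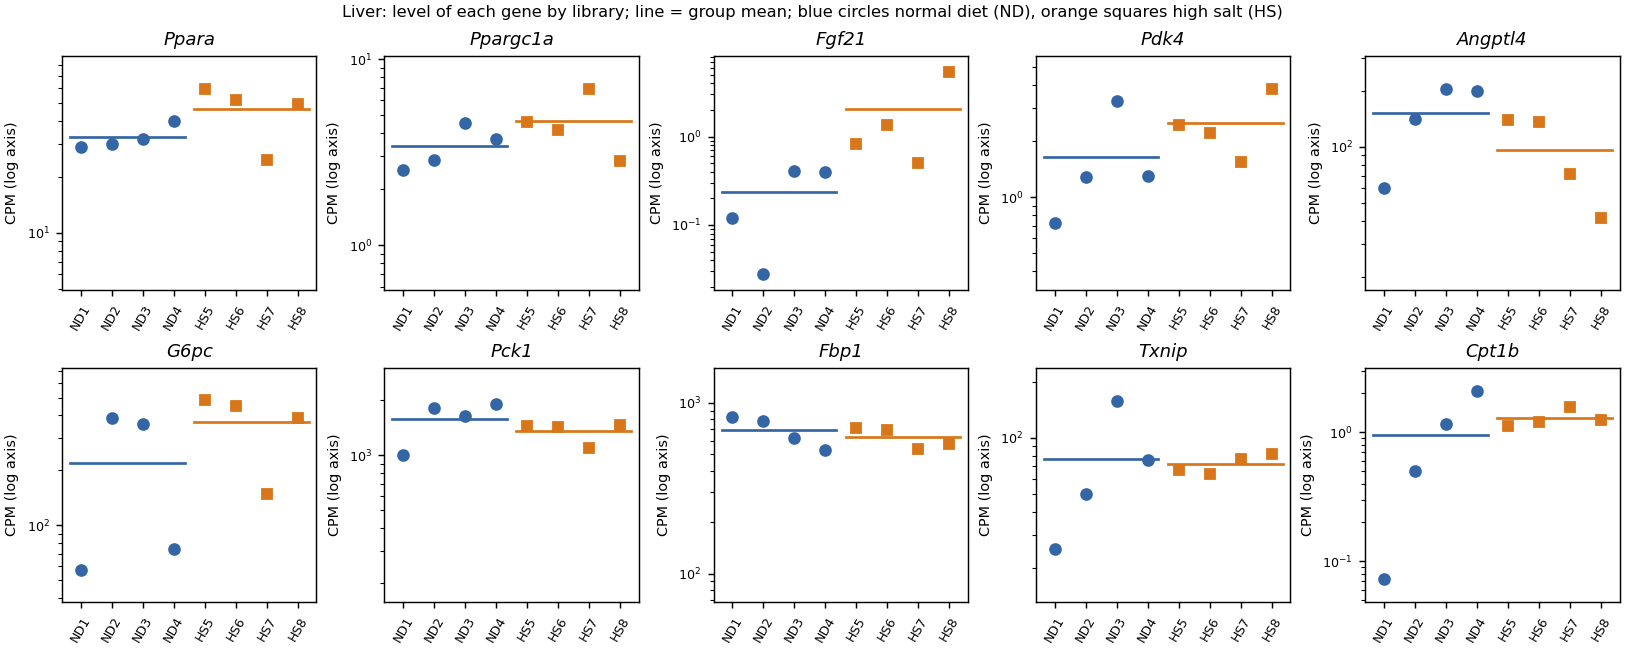
CPM of the 10 genes in each of the 8 liver libraries, on a log axis, with a line at each diet's mean (blue circles ND, orange squares HS). Fgf21 is the gene whose diets do not overlap, and ND1 is the lowest library for Ppargc1a, Pdk4, G6pc, Pck1, Txnip and Cpt1b.

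Fgf21 encodes a hormone that the fasted liver secretes under PPARalpha, and that the liver also makes after carbohydrate intake. It was scarce in every liver library, with 5, 1, 13 and 17 counts in ND1 to ND4 and 46, 67, 24 and 310 counts in HS5 to HS8. This was 0.121, 0.0278, 0.405 and 0.399 CPM on the normal diet. On high salt it was 0.830, 1.37, 0.499 and 5.43 CPM. Every high salt library was above every normal diet library, HS7 by the smallest margin and HS8 by the largest. The means were 0.238 ± 0.193 and 2.03 ± 2.29 CPM (SD, n = 4 each), a ratio of 8.52. The fitted log2 difference came to 3.09 (standard error 0.887), its 95% interval ran from 1.11 to 5.07, and it missed the threshold (edgeR adjusted p = 0.117, unadjusted 0.00601). DESeq2 put the same change past it (3.10, adjusted p = 0.00448). Over the 15 alternatives that tested the gene, the adjusted p ranged from 0.00448 to 0.319.

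The size of the Fgf21 difference rested on HS8. Without that library the log2 fold change was 1.90 (edgeR adjusted p = 0.28). With HS5 and HS6 summed to 1 library it was 3.28 (edgeR adjusted p = 0.247), and without ND1 and ND2 it was 2.32 (edgeR adjusted p = 0.319). HS8 was also the highest liver library for Pdk4, at 3.82 CPM, and the lowest for Angptl4, at 41.5 CPM. Among the fed-state genes it was the highest for Srebf1 (393 CPM), Fasn (1142 CPM), Elovl5 (356 CPM) and Mid1ip1 (72.2 CPM), and for Angptl8, at 139 CPM beside 4.48 to 24.4 CPM in the other 7. It was not the highest for the rest of that list, and Scd1, Pklr, Acly and Pnpla3 were higher in both HS5 and HS6. The summed level of the list was 19340 CPM in HS8, beside 24920 CPM in HS5 and 23710 CPM in HS6.

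The receptors of the hormone and related factors were examined with a list of 11 genes, of which 9 were tested in each tissue and 0 called. Klb, the coreceptor that Fgf21 needs, was 14.2 ± 3.62 CPM in normal diet liver and 19.7 ± 1.80 CPM in high salt liver (SD, n = 4 each), and the log2 fold change was 0.49 (edgeR adjusted p = 0.186). Fgfr3, a receptor of the fibroblast growth factor family, was 13.6 ± 1.85 and 23.4 ± 3.90 CPM, with no overlap between the diets (log2 fold change 0.79, edgeR adjusted p = 0.0654). Atf4, a stress factor that can also drive Fgf21, was named outside the rule for naming genes. It was 94.1 to 120 CPM in the 4 normal diet livers and 57.8 to 99.6 CPM in the 4 high salt livers (log2 fold change -0.49, edgeR adjusted p = 0.209). Its part in the Fgf21 values was not tested.

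Ppara was 29.1, 30.1, 31.8 and 39.7 CPM in liver ND1 to ND4. In HS5 to HS8 it was 59.4, 51.5, 24.6 and 49.3 CPM. HS5, HS6 and HS8 lay above every normal diet library and HS7 below all of them. The fitted log2 difference came to 0.50 (standard error 0.253) (edgeR adjusted p = 0.284), and 0.70 without HS7 (edgeR adjusted p = 0.0745). Kidney held less, at 12.0 ± 2.90 CPM with normal diet and 11.3 ± 0.563 CPM with high salt (SD, n = 3 each). Liver stood above kidney by 2.73 times on normal diet and 4.08 times with high salt, with no overlap between the tissues. Libraries were scaled within each tissue apart, so every level set across tissues here is a description without a test.

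Ppargc1a was low in liver, at 2.55, 2.89, 4.52 and 3.71 CPM in ND1 to ND4. It was 4.60, 4.16, 6.92 and 2.84 CPM in HS5 to HS8. The diets overlapped, with HS7 highest and HS8 inside the normal diet range (log2 fold change 0.44, standard error 0.299, edgeR adjusted p = 0.417). Kidney levels were far higher, at 59.0, 46.2 and 40.1 CPM in ND1 to ND3 and 51.3, 35.9 and 34.7 CPM in HS1 to HS3. This put kidney above liver by 14.2 times on normal diet and 8.78 times with high salt. Library number 1 was the highest kidney library of each diet for this coactivator, and the diets overlapped (log2 fold change -0.25, edgeR adjusted p = 0.9996).

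The partners of PPARalpha and PGC-1alpha (retinoid X receptors, corepressors, coactivators and related receptors) numbered 26. In liver all 26 were tested and 0 were called, with a median log2 fold change of 0.39, and 9 of them had every high salt library above every normal diet library, where 6.61% of all genes did. Pparg, the fat cell relative of Ppara, was 5.07 ± 1.45 CPM with normal diet and 9.64 ± 1.79 CPM with high salt (SD, n = 4 each; log2 fold change 0.94, edgeR adjusted p = 0.0827). The summed level of the list was 581 and 612 CPM in ND1 and ND2 and 747 to 1144 CPM in the other 6 libraries. That sum leaned on 1 gene, Lpin1, at 227 ± 203 CPM with normal diet and 293 ± 139 CPM with high salt. Its log2 CPM minus its mean over the 8 libraries was -2.65 in ND1, -1.23 in ND2 and -1.11 in HS8. In the rest it was 0.826 to 1.25, so the low sums are not a trait shown for the whole list. In kidney 25 were tested and 0 called, with a median of -0.09. The kidney partners with the smallest p-values were the coactivator Ep300 (-0.43) and the corepressor Nrip1 (-0.27), both with an edgeR adjusted p of 0.9996.

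Pdk4 encodes the kinase that shuts the pyruvate dehydrogenase complex in fasting and so spares pyruvate for glucose production. In liver it was 0.728, 1.28, 3.30 and 1.29 CPM in ND1 to ND4. In HS5 to HS8 it was 2.45, 2.20, 1.54 and 3.82 CPM. Within the normal diet, ND3 stood 4.53 times above ND1, and the diets overlapped through ND3. The fitted log2 difference came to 0.61 (standard error 0.461) (edgeR adjusted p = 0.459), and 1.19 without ND3 (edgeR adjusted p = 0.0866). Kidney held more, at 16.0, 7.74 and 8.41 CPM in ND1 to ND3 and 7.77, 13.3 and 12.3 CPM in HS1 to HS3. Kidney stood above liver by 6.50 times on normal diet and 4.45 times with high salt.

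Per length of exon, Pdk4 was a minor member of its family in liver. In normal diet liver it was 0.470 ± 0.322 CPM per 1000 bases of exon (RPKM), beside 20.9 ± 1.28 for Pdk2, 8.11 ± 3.33 for Pdk1 and 0.103 ± 0.0244 for Pdk3 (SD, n = 4). In normal diet kidney Pdk4 was 3.05 ± 1.31 RPKM, beside 18.6 ± 8.01 for Pdk2, 11.9 ± 3.82 for Pdk3 and 3.25 ± 0.135 for Pdk1 (SD, n = 3). Pdk2 had the highest mean in both tissues, in kidney with a spread that overlapped that of Pdk3, and Pdk4 and Pdk1 in kidney did not differ beyond their spread.

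Angptl4, the fasting-induced protein that inhibits lipoprotein lipase, was 60.2, 142, 205 and 199 CPM in liver ND1 to ND4. It was 139, 136, 71.4 and 41.5 CPM in HS5 to HS8. ND2, ND3 and ND4 lay above every high salt library, and ND1 lay among the lowest 3 libraries with HS7 and HS8. The fitted log2 difference came to -0.65 (standard error 0.451) (edgeR adjusted p = 0.424). In kidney it was 11.1, 18.3 and 16.1 CPM with normal diet and 11.4, 14.8 and 24.3 CPM on high salt, 5.75 to 9.96 times under liver. Its partner Angptl8, which insulin induces, was 13.1 ± 9.85 CPM in normal diet liver and 50.5 ± 59.2 CPM in high salt liver (SD, n = 4 each), the latter resting on HS8 (log2 fold change 1.98, edgeR adjusted p = 0.197).

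Cpt1b encodes the muscle form of carnitine palmitoyltransferase, the gate of fatty acid entry into mitochondria. In liver it was 0.0728, 0.4995, 1.15 and 2.09 CPM in ND1 to ND4. It was 1.12, 1.20, 1.58 and 1.24 CPM in HS5 to HS8. The normal diet spanned 28.7 times from ND1, with 3.46 expected counts, to ND4, with 89.1. It enclosed all 4 high salt libraries, which spanned 1.41 times. The fitted log2 difference came to 0.41 (standard error 0.675) (edgeR adjusted p = 0.75). It was 0.018 without ND1, 1.18 without ND4 and -0.36 when ND1 and ND2 were left out (edgeR adjusted p-values 0.99, 0.249 and 0.612), so its size and sign rested on the normal diet libraries. In kidney it was 11.8, 7.57 and 7.78 CPM with normal diet and 9.06, 6.94 and 9.43 CPM on high salt, 9.49 and 6.59 times above liver.

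The liver form, Cpt1a, was the main one in both tissues. Per length it was 32.5 ± 12.3 RPKM in normal diet liver, beside 0.283 ± 0.260 for Cpt1b (SD, n = 4), and 27.7 ± 9.51 RPKM in normal diet kidney, beside 2.68 ± 0.705 for Cpt1b (SD, n = 3). Of 9 striated muscle markers, 4 were in the kidney table, among them Myh6 and Mb, and their summed level was 2.91 to 5.34 CPM with normal diet and 0.364 to 0.580 CPM on high salt. Cpt1b in kidney overlapped between the diets. ND1 had the highest marker sum (5.34 CPM) and the highest Cpt1b (11.8 CPM), while HS3 had the lowest sum (0.364 CPM) and the next highest Cpt1b (9.43 CPM). The part of these markers in the Cpt1b values was not tested. In liver 3 of the 9 markers were in the table, with summed levels of 0.0541 to 0.493 CPM, and Mb was at 0 in ND1, ND2, ND3, HS5 and HS6. Cpt1b lies on chromosome 15, 89416405 to 89425863 on the minus strand (GRCm38), within the annotated gene Gm44502 of the same strand. Reads shared by them could be split between them. In liver Gm44502 held 10.3, 13.0, 0.666 and 5.50 expected counts in ND1 to ND4. Cpt1b held 3.46, 17.6, 36.5 and 89.1 there. In HS5 to HS8 Gm44502 held 11.3, 3.79, 1.90 and 16.2. The part of such a split in the Cpt1b values was not tested.

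The wider set of PPARalpha targets gave no call in either tissue (0 of 27 in liver and 0 of 26 in kidney). Cyp4a14, a fatty acid hydroxylase among the most inducible of these targets, was 7.41, 3.25, 24.2 and 1.03 CPM in liver ND1 to ND4. It was 51.8, 49.4, 78.8 and 74.3 CPM in HS5 to HS8, with no overlap (log2 fold change 2.83, edgeR adjusted p = 0.100). In kidney it was 2.52, 8.44 and 5.17 CPM with normal diet and 6.88, 8.32 and 70.5 CPM on high salt, so the kidney value of 2.41 rested on HS3 (edgeR adjusted p = 0.9996). Creb3l3, a liver factor that works with PPARalpha in fasting, was 221 to 303 CPM in normal diet liver and 174 to 184 CPM in high salt liver (log2 fold change -0.57, edgeR adjusted p = 0.103). Named targets therefore lay on both sides of 0, and the list's median was 0.09 in liver and 0.23 in kidney, where 24 of 26 were positive and 0 called.

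G6pc encodes glucose-6-phosphatase, which releases free glucose in the last step of gluconeogenesis. It was the most variable of the 3 gluconeogenic members in liver. Its levels were 57.1, 389.9, 361 and 74.3 CPM in ND1 to ND4. They were 485, 449, 148 and 389 CPM in HS5 to HS8. The normal diet split into ND1 and ND4 at low levels and ND2 and ND3 at levels like those of HS5, HS6 and HS8, with HS7 between. The means were 221 ± 179 and 368 ± 152 CPM (SD, n = 4 each), and the fitted log2 difference came to 0.75 (standard error 0.623), with a 95% interval from -0.65 to 2.14 (edgeR adjusted p = 0.503). The mitochondrial share was 2.30% in ND1, 2.06% in ND2, 29.6% in ND3 and 18.7% in ND4. Its part in this split was not tested.

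In kidney, G6pc was 125, 166 and 122 CPM in ND1 to ND3 and 189.7, 154 and 175 CPM in HS1 to HS3. ND2 lay inside the high salt range (log2 fold change 0.33, standard error 0.216, edgeR adjusted p = 0.9996). Its paralog G6pc3, present in most cell types, was 1.88 ± 0.519 RPKM in normal diet liver beside 91.4 ± 74.3 RPKM for G6pc (SD, n = 4). Slc37a4, the transporter that feeds glucose-6-phosphate to the enzyme, was 57.7 ± 5.34 CPM in normal diet kidney and 76.2 ± 14.9 CPM in high salt kidney with no overlap (SD, n = 3 each; log2 fold change 0.40, edgeR adjusted p = 0.9996). In liver it was 235 ± 52.5 and 187 ± 15.8 CPM (SD, n = 4 each), also with no overlap and with the opposite sign (log2 fold change -0.32, edgeR adjusted p = 0.323).

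Pck1 encodes cytosolic phosphoenolpyruvate carboxykinase, an early committed step of gluconeogenesis. In liver it was 998, 1813, 1643 and 1896 CPM in ND1 to ND4. It was 1441, 1435, 1092 and 1455 CPM in HS5 to HS8. ND1 was the lowest and HS7 the next, and the other 3 normal diet libraries lay above all high salt libraries. The fitted log2 difference came to -0.23 (standard error 0.249), with a 95% interval from -0.78 to 0.33 (edgeR adjusted p = 0.617). The mitochondrial form Pck2 was 0.418 ± 0.108 RPKM in normal diet liver beside 463 ± 119 RPKM for Pck1 (SD, n = 4).

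In kidney, Pck1 was 491, 279.7 and 267 CPM in ND1 to ND3 and 466, 295 and 519 CPM in HS1 to HS3. ND1, HS1 and HS3 formed a high set that crossed the diets (log2 fold change 0.31, standard error 0.32, edgeR adjusted p = 0.9996). Kap, a proximal tubule marker, was lowest in the same 3 libraries, at 20110, 28490 and 36390 CPM beside 53140 to 55580 CPM in the other 3. The summed level of the 8 tubule markers, all 8 present, was 25540 to 59060 CPM with normal diet and 32960 to 58390 CPM with high salt. Without Kap, the other 7 markers summed the opposite way, to 5431, 4474 and 4405 CPM in ND1, HS1 and HS3 beside 3391 to 3488 CPM in ND2, ND3 and HS2. The part of these markers in the Pck1 values was not tested.

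Fbp1, which encodes fructose-1,6-bisphosphatase, was the steadiest member in liver. It was 821, 785, 619.8 and 531 CPM in ND1 to ND4 and 714, 689.6, 538 and 571 CPM in HS5 to HS8. ND1, the lowest library for 6 members, was the highest for this one, and the diets overlapped (log2 fold change -0.12, standard error 0.197, edgeR adjusted p = 0.743). In kidney it was 426, 374 and 405 CPM with normal diet and 407, 419 and 517 CPM with high salt (log2 fold change 0.16, edgeR adjusted p = 0.9996). The muscle form Fbp2 was 0.103 ± 0.0393 RPKM in normal diet liver beside 405 ± 80.5 RPKM for Fbp1 (SD, n = 4).

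Of 24 other gluconeogenic genes tested in liver, edgeR called 1 higher and 0 lower, DESeq2 called 1 higher and 3 lower, and 17 of the 24 had a negative log2 fold change with a median of -0.20. The called gene was Gpi1, the glucose-6-phosphate isomerase that glycolysis and gluconeogenesis share, which rose from 68.4 ± 10.5 to 129 ± 14.1 CPM (SD, n = 4 each; log2 fold change 0.92, edgeR adjusted p = 0.0433). That call was lost without ND1, ND2, HS5, HS6 or HS8, with HS5 and HS6 summed, and with ND1 and ND2 both left out. The aminotransferase gene Gpt, which feeds alanine carbon into the pathway, was chosen after its values were seen: it was 268 ± 67.5 and 152 ± 9.95 CPM (SD, n = 4 each), with no overlap (log2 fold change -0.80, edgeR adjusted p = 0.0761). In kidney 0 of 22 were called, 19 of 22 were positive, and 5 had every high salt library above every normal diet library, where 3.67% of all kidney genes did. Ldha, which interconverts lactate and pyruvate, was 133 ± 29.0 and 204 ± 12.6 CPM in kidney (SD, n = 3 each; log2 fold change 0.62, edgeR adjusted p = 0.9996).

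**Figure D2:**
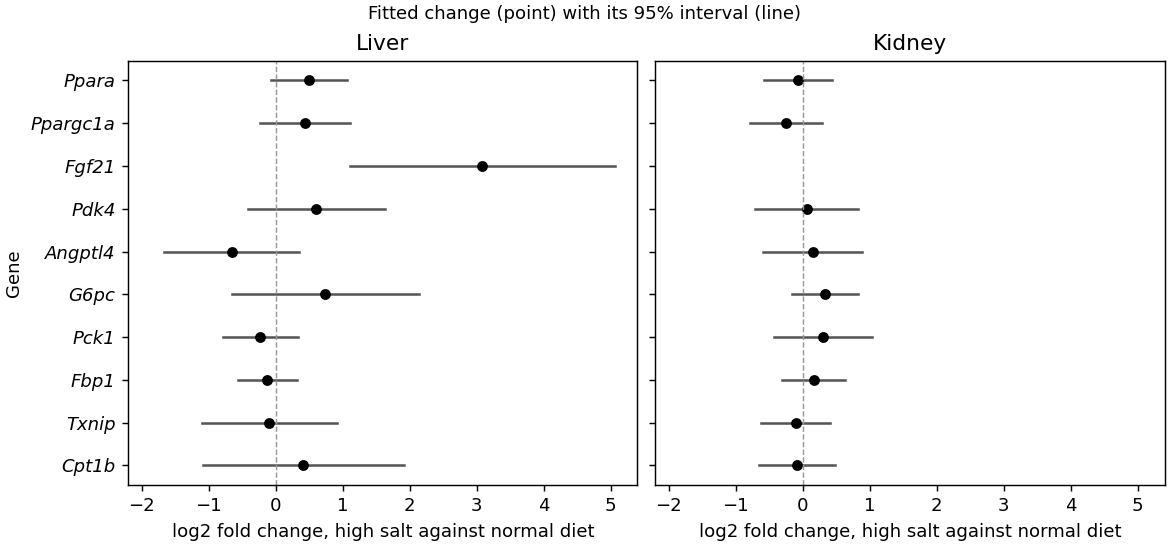
Log2 fold change of high salt against normal diet for each gene in liver (left) and kidney (right), with points for the fitted value and lines for its 95% interval. The interval of Fgf21 in liver, 1.11 to 5.07, is the one that does not reach 0.

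Txnip encodes a thioredoxin-binding protein that restrains glucose uptake, rises with glucose through the factors MondoA and ChREBP, and is held down by insulin in liver. In liver it was 25.3, 49.7, 157 and 75.9 CPM in ND1 to ND4. It was 67.2, 63.8, 77.2 and 82.0 CPM in HS5 to HS8. The coefficient of variation was 74.4% on normal diet and 11.7% with high salt, while the means of 77.1 and 72.5 CPM nearly met (log2 fold change -0.09, edgeR adjusted p = 0.926). The fold change was 0.52 without ND3 (edgeR adjusted p = 0.322) and -0.70 without ND1 and ND2 (edgeR adjusted p = 0.26), so its sign depended on those libraries. In kidney it was 109.8, 158 and 135 CPM with normal diet and 118, 142 and 113 CPM with high salt (log2 fold change -0.11, edgeR adjusted p = 0.9996).

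Arrdc4, a relative of Txnip under the same glucose-sensing factors, was 6.48 ± 1.36 CPM in normal diet liver and 10.2 ± 1.27 CPM in high salt liver with no overlap (SD, n = 4 each; log2 fold change 0.66, edgeR adjusted p = 0.117). Mlx, the partner of those factors, was 57.5 ± 26.7 and 29.7 ± 1.64 CPM (log2 fold change -0.94, edgeR adjusted p = 0.132). Among all 22 tested paralogs and partners of the members 0 were called in liver, and among 20 in kidney 0. Txnip lies on chromosome 3, 96557957 to 96561883 on the plus strand (GRCm38). The antisense gene Gm15441 spans it, and the sources do not state whether counting used strand. Gm15441 held 0.121 ± 0.0829 CPM in normal diet liver and 0.246 ± 0.135 CPM in high salt liver (SD, n = 4 each), far under Txnip.

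Upstream of these genes, 0 of 22 genes of glucagon and cyclic AMP signalling and 0 of 19 of insulin and FOXO signalling were called in liver. Of the first list the smallest p-values belonged to Creb3l3, given above, and Nr4a2, an early cyclic AMP target that averaged 0.112 and 0.346 CPM (log2 fold change 1.61, edgeR adjusted p = 0.133). In the insulin and FOXO list they belonged to Irs1 and Ccng2. Irs1, an insulin receptor substrate, was 2.68 ± 1.22 and 6.95 ± 0.752 CPM with no overlap (SD, n = 4 each; log2 fold change 1.39, edgeR adjusted p = 0.0598), and Ccng2, a FOXO target, was at -0.74 on the log2 scale (edgeR adjusted p = 0.13). Igfbp1, a gene that insulin strongly represses, was picked after its values were seen: it was 5.78, 34.5, 37.7 and 154 CPM in ND1 to ND4 and 14.5, 14.4, 4.38 and 6.07 CPM in HS5 to HS8. In kidney 0 of 20 and 0 of 18 genes of these lists were called. Among 14 glucocorticoid targets tested in liver 0 were called. The metallothioneins Mt1 (-6.25) and Mt2 (-7.50) had the smallest p-values there, with edgeR adjusted p-values of 0.0783 and 0.11, and their normal diet mean rested on ND4.

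The fed-state list held enzymes of glycolysis and fatty acid synthesis and other genes, among them Srebf1, Insig1, Angptl8, Pnpla3 and Lpin1. Lpin1 was also counted among the partners of PPARalpha and PGC-1alpha. The list was chosen with earlier results of these libraries known. It gave 9 calls of 17 in liver, all higher on high salt, with a median log2 fold change of 1.92. Acly, which makes cytosolic acetyl-CoA, rose from 91.8 ± 8.32 to 346 ± 72.8 CPM (SD, n = 4 each; log2 fold change 1.92, edgeR adjusted p = 0.00482). Pklr, liver pyruvate kinase, rose from 103 ± 9.41 to 483 ± 147 CPM (log2 fold change 2.23, edgeR adjusted p = 0.00618). Elovl5 and Fasn rose by 1.60 and 3.24 on the log2 scale (edgeR adjusted p = 0.00857 and 0.0115). The summed level of the list was 2665 to 5310 CPM with normal diet and 11010 to 24920 CPM with high salt. The 9 calls became 4 with HS5 and HS6 summed or without HS6, and 5 without HS5 or with ND1 and ND2 left out. In kidney 0 of 14 were called.

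**Figure D3:**
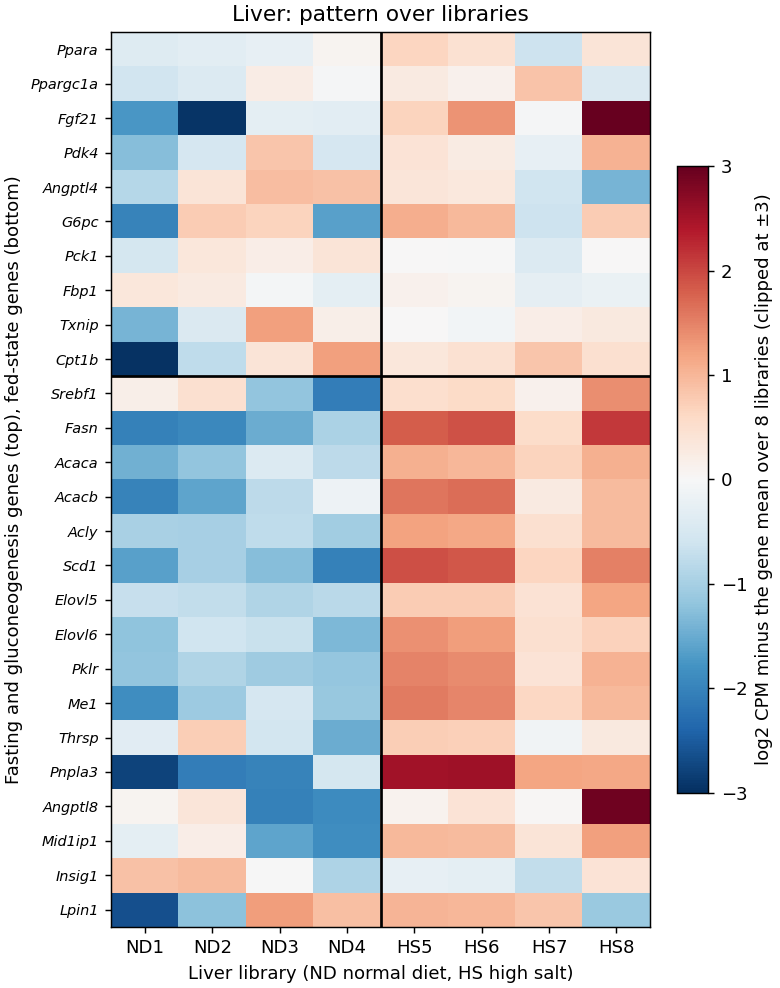
Log2 CPM of the 10 members (above the black line) and the fed-state genes reported here (below it) in each liver library, minus the gene's mean over the 8 libraries, on a colour scale limited to 3 either side. The fed-state block mostly changes colour at the diet boundary, whereas the members change colour from library to library within a diet.

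The members place each liver library as follows. ND1 was the lowest of the 8 libraries for 6 of the 10 members and in the upper 4 for 1 of them, Fbp1. ND2 was in the upper 4 for 4 members and was the lowest for Fgf21. ND3 and ND4 were each in the upper 4 for 5 members: ND3 was the highest for Angptl4 and Txnip, and ND4 for Pck1 and Cpt1b, but ND4 was low in G6pc. HS5, HS6 and HS8 were each in the upper 4 for 7 members, and HS7 for 4. HS7 had the lowest Ppara and the highest Ppargc1a. The summed level of kidney tubule markers was also highest in HS7: of 8 markers 6 were in the liver table, with sums of 0.558 to 5.89 CPM with normal diet and 2.89 to 46.2 CPM on high salt. That sum leaned on Kap, at 1.05 ± 2.06 CPM with normal diet and 12.6 ± 16.9 CPM with high salt (SD, n = 4 each). The next in high salt mean, Slc34a1 and Lrp2, were 1.61 ± 1.87 and 1.59 ± 0.586 CPM there. Umod, a defining tubule marker, was at 0 in ND1 and ND2. The part of these markers in the member values was not tested.

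No liver library was in the upper 4 for more than 7 of the 10 members, and members and fed-state genes did not part cleanly in any library. ND4 had the highest Pck1, Cpt1b and Igfbp1 and the lowest Srebf1 of the 8 libraries, with G6pc at 74.3 CPM. ND1 had low G6pc, Pck1, Angptl4 and Igfbp1 and also low Fasn, at 65.04 CPM. The fed-state genes of ND1 went both ways. Log2 CPM minus the gene's mean over the 8 libraries was -2.02 for Fasn and -1.63 for Scd1 in ND1. There it was 0.175 for Srebf1 and 0.885 for Insig1. In ND4 these genes, in the same order, were at -0.947, -2.03, -2.07 and -0.922. HS5 had the highest G6pc and Ppara together with 931 CPM of Fasn, and HS8 had the highest Fgf21 and Pdk4 with 1142 CPM of Fasn. The labels give no feeding state, and a difference in food intake or hour of collection and the diet itself cannot be told apart here.

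Between the lowest and highest of the 6 kidney libraries the members spanned from 1.38 times (Fbp1) to 2.19 times (Angptl4). Over the 8 liver libraries they spanned from 1.55 times (Fbp1) to 195 times (Fgf21, with 1 count in its lowest library, ND2). Cpt1b, also scarce in liver, spanned 28.7 times, with 3.46 expected counts in its lowest library, ND1. Pck1 spanned 1.94 times in kidney and 1.9 times in liver. ND1 was the highest kidney library for Ppara, Ppargc1a, Pdk4 and Cpt1b and the lowest for Angptl4 and Txnip. HS3 was the highest for Angptl4, Pck1 and Fbp1 and the lowest for Ppargc1a. HS1 had the highest G6pc, at 189.7 CPM.

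**Figure D4:**
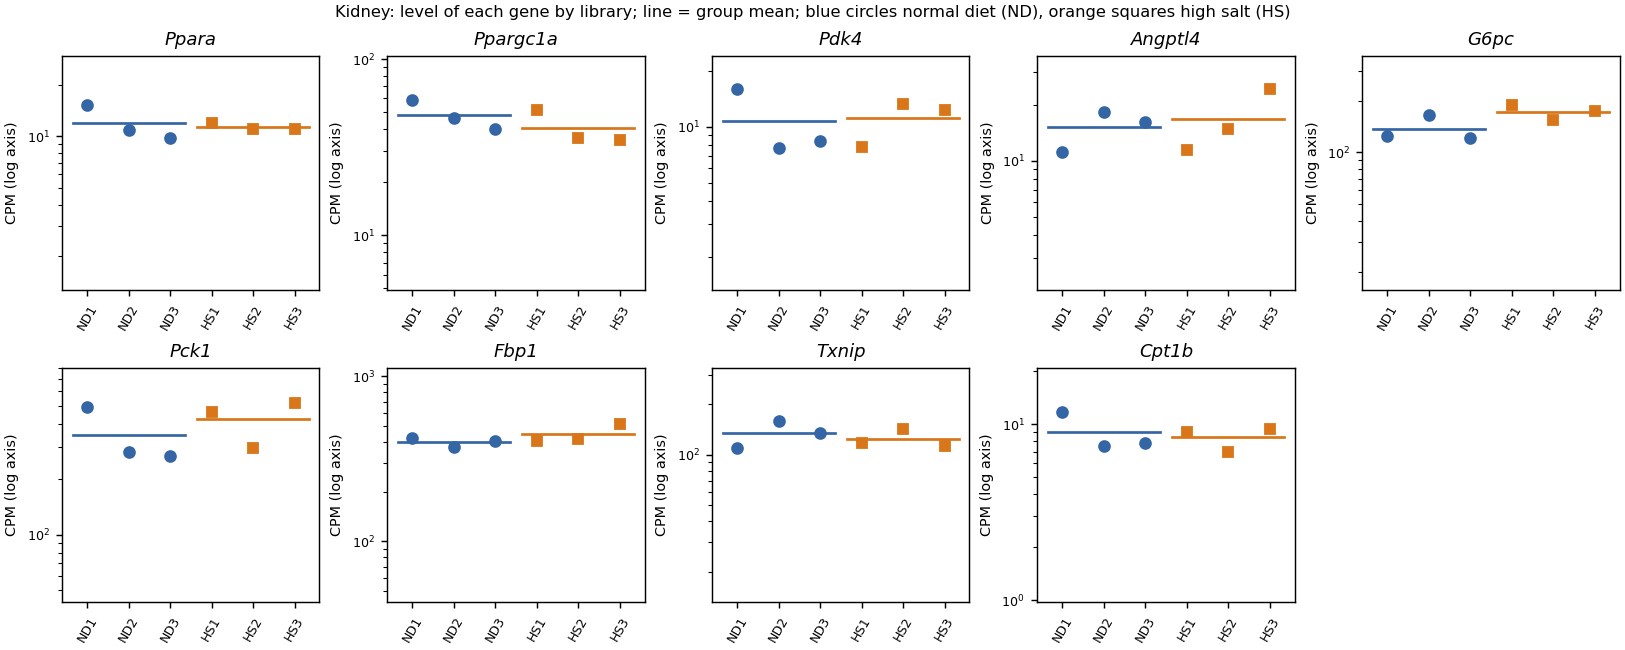
CPM of the 9 genes in each of the 6 kidney libraries, on a log axis, with a line at each diet's mean (blue circles ND, orange squares HS). The diets overlap in every panel, and Pck1 is high in ND1, HS1 and HS3.

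Whether the diet difference itself differed between liver and kidney was tested as an interaction in 1 fit of all 14 libraries. Of 16633 genes 0 were called (0%; 1681 at an unadjusted p under 0.05, 10.1%; DESeq2 called 145), and 0 of the 9 members. The interaction (liver minus kidney, log2) was 0.60 for Ppara, 0.70 for Ppargc1a, 0.58 for Pdk4 and 0.54 for Cpt1b. It was -0.77 for Angptl4, -0.52 for Pck1 and -0.28 for Fbp1. G6pc was at 0.42 and Txnip at 0.04, and the edgeR adjusted p-values of the 9 ranged from 0.547 to 0.988. With standard errors from 0.339 to 0.802, these libraries could not tell such differences from 0.

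Set side by side, 7 of the 9 members differed between the tissues with no overlap of libraries on either diet, as did 52.4% of the 16633 genes tested in both tissues. Angptl4, Pck1, Ppara and Fbp1 were higher in liver than in kidney on both diets with no overlap between libraries, on the normal diet by 1.72 times (Fbp1) to 9.96 times (Angptl4). Ppargc1a, Cpt1b and Pdk4 were higher in kidney on both diets with no overlap. G6pc overlapped between the tissues on both diets, and Txnip overlapped on the normal diet and was 1.71 times higher in kidney on high salt. Per length in normal diet liver, the order ran from Pck1 (463 ± 119 RPKM) and Fbp1 (405 ± 80.5 RPKM), which did not differ beyond their spread, through G6pc (91.4 ± 74.3 RPKM), Angptl4 (42.8 ± 19.0 RPKM), Txnip (24.7 ± 18.4 RPKM) and Ppara (8.51 ± 1.25 RPKM). From G6pc to Ppara, each gene's mean ± SD overlapped that of the next. The last 4 were Ppargc1a (0.518 ± 0.134 RPKM), Pdk4 (0.470 ± 0.322 RPKM), Cpt1b (0.283 ± 0.260 RPKM) and Fgf21 (0.251 ± 0.203 RPKM), which did not differ beyond their spread (SD, n = 4 throughout). In normal diet kidney the order was Fbp1 (236 ± 15.3 RPKM), Pck1 (101 ± 36.7 RPKM), G6pc (57.1 ± 10.3 RPKM), Txnip (43.01 ± 7.78 RPKM) and Ppargc1a (7.35 ± 1.46 RPKM; SD, n = 3). Angptl4 (4.29 ± 1.04 RPKM), Ppara (3.12 ± 0.756 RPKM), Pdk4 (3.05 ± 1.31 RPKM) and Cpt1b (2.68 ± 0.705 RPKM) came last and overlapped in their spread.

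For the 3 most variable members of each tissue, the genes with the most similar pattern over libraries were found by the root mean square difference of centred log2 CPM, among genes of at least 10 CPM on average. Over the 8 liver libraries, the nearest to Fgf21 was Fasn, at a difference of 0.889, followed by Col27a1 and Pltp. The nearest to Cpt1b were Irs2 (0.525), an insulin receptor substrate that FOXO raises, Cyp39a1 and Srcap. The nearest to G6pc were Timp3 (0.619), Lrat and Angptl2. Over the 6 kidney libraries, the nearest to Pck1 were Drg2 (0.0606), Ppp2r1a and Gm9755, the nearest to Pdk4 were Slc22a19 (0.112), Slc22a26 and Cndp2, and the nearest to Angptl4 were Hao2 (0.0878), Fuca1 and H2-Eb1. These are likenesses over a few libraries that share depth and scaling, among 6694 to 7390 candidate genes.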

How the data were processed

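RNA of liver and kidney was sequenced from SMARTer mRNA libraries, per the labels' protocols. The authors deposited expected counts per gene, per the file headers. Partek 7.0, STAR 2.5.3a, DESeq2 and mm10 are named in the submitters' processing notes without a role. The annotation release and the strand setting are not given in the sources used here. Deposited normalized values were not used, and 0 per-sample columns of the count tables were left unused. The high salt liver columns are numbered 5 to 8. No title has these numbers, so they served as unnumbered replicates of their group.

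After rounding to whole numbers, these expected counts entered edgeR 4.0.16 in R 4.3.3 (TMM, filterByExpr, quasi-likelihood test, diet as the term), in each tissue apart, with Benjamini-Hochberg adjustment over all genes tested. The interaction used the 17600 genes of both tables. CPM and RPKM values were computed from these counts, RPKM with exon lengths of GENCODE M21. The member starts in the files equal those of GENCODE M21 for all 10 liver and 9 kidney genes. RNA depth was at least 16046094 counts, so spread between libraries, not counting, limits all members but Fgf21 and Cpt1b in liver. Reads carried no molecular identifiers and are not independent.

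The members and all lists were chosen with earlier results of these data known. Named were all members, of each list the genes past the threshold (up to 4) or the 2 with the smallest p-values, stated paralogs, and nearest neighbours of the 3 most variable members. Some genes, among them Gpt, Igfbp1, Atf4 and Lpin1, were named outside this rule. The alternatives tried were DESeq2 1.42.0, scaling by RLE or upper quartile, other count filters, mitochondrial genes left out, each library left out, HS5 and HS6 summed, ND1 and ND2 left out, and a replicate block in kidney. The human transgene was not analysed here. Some genes of the lists are counted but not reported here by name.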

Additional observations from a re-analysis of the deposited data

Results flagged for a closer look

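Pck1 in high salt liver library HS7 lay at 1092 CPM, far from HS5, HS6 and HS8, which lay between 1435 and 1455 CPM. The gap took 0.945 of the group's range, above the 95% limit of Dixon's test for 4 samples. It was the 1 value found among 20 groups of 4 liver libraries checked, where chance alone gives about 1. HS5 and HS6, which make up most of the narrow set, were the pair with a chi-square per gene of 1.65.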

How the results depend on the processing

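The number of liver genes called was 152, and 1122 with DESeq2, 12 with HS5 and HS6 summed, 52 with ND1 and ND2 both left out, and 12 to 765 when 1 library was left out. The number of kidney genes called was 0, and 11 with DESeq2. The interaction gave 0, and 145 with DESeq2, 2 with at least 10 counts in every library, 1 with ND1 and ND2 both left out, and 0 to 7 when 1 library was left out. The causes were not tested.

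Of 158 liver member values under 16 alternatives, 154 kept their direction and their side of the threshold. Fgf21 passed with DESeq2 (3.10), and its value ranged from 1.90 to 3.495 when 1 library was left out. Fbp1 turned to 0.11 and Cpt1b to -0.36 with ND1 and ND2 left out, and Txnip ranged from -0.39 to 0.52 when 1 library was left out. Of 117 kidney values 10 turned, all when 1 library was left out: Ppara ranged from -0.20 to 0.13, Angptl4 from -0.21 to 0.37, Cpt1b from -0.20 to 0.14, Pdk4 from -0.13 to 0.46 and Txnip from -0.24 to 0.029. Of 197 interaction values 10 turned. The Txnip interaction was -0.016 with RLE scaling and with DESeq2, -0.53 with ND1 and ND2 left out, and -0.24 to 0.65 when 1 library was left out. With ND1 and ND2 left out, the interaction was 0.015 for Fbp1 and -0.21 for Cpt1b.

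With the replicate block, the kidney fit called 0 genes, with 459 at an unadjusted p under 0.05, and changed no member's call. Same-numbered kidney libraries had correlations of 0.407, 0.373 and -0.0899 between their deviations from the diet means, so the numbers were not taken to pair them. With at least 10 counts in every library, Fgf21 and Cpt1b in liver were not tested.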

Other observations

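Fut1, a fucosyltransferase gene within 10 kb of Fgf21 on the opposite strand, was looked at after its values were seen. It held 0, 0, 1 and 2 counts in liver ND1 to ND4 and 15, 11, 5 and 45 counts in HS5 to HS8, too few to enter the test. HS8 was the highest library for it, as for Fgf21, and the diets did not overlap. Whether reads are shared between these neighbours was not tested.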
